A study of Homo sapiens with 2 samples.

Results

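ALDH1A1-positive cells are the treatment-naïve attached SUM159 cells in which 2 or more ALDH1A1 molecules were counted, and they numbered 442 of 5305 cells of that population and of 30122 cells in the whole series. They were set against the 4309 cells of the same population in which no ALDH1A1 molecule was counted. The 554 cells with 1 molecule belonged to neither group. SUM159 is a human triple-negative breast cancer line, given in the labels with the genotype Wt, and it mixes epithelial-like, intermediate and highly mesenchymal cells. Transcripts of a targeted breast cancer panel had been counted in single cells as unique molecular identifiers (UMIs), each of which stands for 1 captured molecule. The series holds 2 samples, 1 of attached (2D) cells and 1 of spheroids (3D) grown in Matrigel, each with 3 populations marked by sample tags. These were untreated cells, called treatment-naïve here, and 2 resistant lines made by long-term treatment with increasing doses of paclitaxel or doxorubicin. For doxorubicin the study's methods describe short exposures, each followed by recovery without drug. No population was replicated and all come from 1 cell line, so cells are described here without tests between conditions, and every interval in parentheses is a 95% interval for counting error only.

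ALDH1A1 encodes a cytosolic aldehyde dehydrogenase that oxidises retinaldehyde to retinoic acid and clears reactive aldehydes. High aldehyde dehydrogenase activity is widely used to enrich breast cancer cells with stem cell properties, and enzymes of this family can inactivate some anticancer drugs. On GRCh38 the gene lies on chromosome 9, from 72900671 to 72953053. The panel counts transcript, not enzyme activity, and ALDH1A1 chose the cells, so its own level in them is a description.

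Within the series ALDH1A1 transcript was almost entirely a feature of treatment-naïve cells. Attached treatment-naïve cells held 2118 ALDH1A1 UMIs, which is 98.9 counts when scaled to a total of 1000000 UMIs (CPM; 94.7 to 103). At least 1 UMI was found in 996 of them, or 18.8% (17.7 to 19.9), and 2 or more in 8.33% (7.60 to 9.11). Paclitaxel-resistant attached cells, from the same cartridge and of similar depth, held 21 UMIs in 5896 cells (0.897 CPM), never more than 1 in a cell. Doxorubicin-resistant attached cells held 11 UMIs in 7032 cells (0.374 CPM), again no more than 1 in a cell. None of the resistant attached cells was positive, which allows a share of up to 0.0509% of paclitaxel-resistant and 0.0427% of doxorubicin-resistant cells. The share of resistant cells with 1 UMI was 0.356% and 0.156%. Whether these UMIs are background or low expression was not tested.

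Treatment-naïve spheroids were the only other population with more than a trace of the transcript. They held 552 ALDH1A1 UMIs (48.8 CPM, 44.8 to 53.1), and 99 of 4362 cells, or 2.27% (1.85 to 2.76), were positive. Spheroid cells were shallower, with a median of 1538.5 UMIs against 3710 in attached treatment-naïve cells. Among the 2442 spheroid cells with at least 1000 UMIs, 3.97% (3.23 to 4.82) were positive. After every cell was thinned to 1000 UMIs, at least 1 ALDH1A1 UMI remained in 7.09% (6.41 to 7.81) of attached and 3.85% (3.12 to 4.69) of spheroid treatment-naïve cells, so the lower share in spheroids was seen at equal depth too. In the resistant spheroids no paclitaxel-resistant cell and 2 of 3776 doxorubicin-resistant cells were positive.

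**Figure D1:**
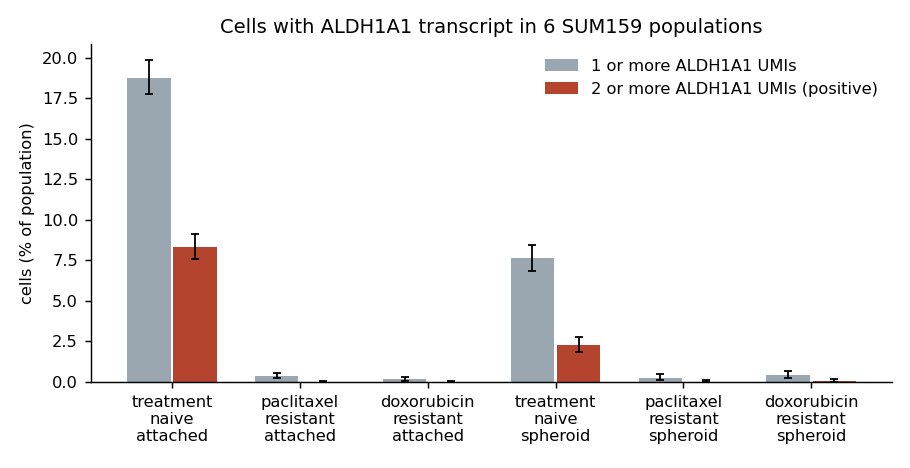
Bars give the percentage of cells with 1 or more ALDH1A1 UMIs (grey) and with 2 or more (red) in each of the 6 populations, with exact binomial 95% intervals for counting error. Both treatment-naïve populations stand out, at 8.33% positive cells in attached culture and 2.27% in spheroids, and the 4 resistant populations lie near 0.

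The positive cells were a graded group rather than a sharply separate one. They carried 2 to 31 ALDH1A1 UMIs with a median of 3, and 7 cells carried more than 10. Just inside the threshold were 204 cells with 2 UMIs and just outside it the 554 cells with 1. A further 146 cells had 3 to 4 UMIs and 92 had 5 or more. Together the positive cells held 1564 of the 2118 UMIs, or 73.8%.

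Positive cells were also deeper. Counting all other genes, the median positive cell had 4677 UMIs (quartiles 3588 to 6128) and the median 0-UMI cell 3605 (quartiles 2613 to 4798), with 143 and 133 genes detected. The median was higher the more ALDH1A1 UMIs a cell had, from 3972 UMIs in cells with 1 ALDH1A1 UMI to 4476 with 2, 4978.5 with 3 to 4 and 5343 with 5 or more. The positive cells ranged from 1064 to 13767 UMIs, and 10 of them were among the 1% of cells with the most UMIs. A deeper cell has more chances to show a second ALDH1A1 molecule, so the ratios that the results turn on are also given against 0-UMI cells weighted to the depth of the positive cells, called the depth-standardised value. The part of depth in the results was not tested beyond that.

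Positive cells had less transcript of 5 matrix and mesenchymal genes than 0-UMI cells and more of 3 basal epithelial genes and of CCL5. DCN, which encodes the matrix proteoglycan decorin, was 6.00-fold lower (4.89 to 7.44) in positive cells, and COL3A1, a fibrillar collagen gene, was 4.90-fold lower (4.61 to 5.21), or 4.25-fold with depth standardised. The chemokine gene CCL5 was 2.28-fold higher (2.26 to 2.30), MME, the surface peptidase CD10 of basal breast cells, 2.11-fold higher (1.98 to 2.24), and AREG, a ligand of the epidermal growth factor receptor, 2.07-fold higher (2.02 to 2.12). A gene was counted as higher or lower when its CPM over the summed cells differed at least 2-fold and at least 50 UMIs were observed in the positive cells or expected there at the level of the 0-UMI cells. Of 333 panel genes besides ALDH1A1 that were listed for this population, 204 had the UMIs to be measured, and 8 of them (3.92%) were higher and 8 (3.92%) were lower, or 7.84% in either direction. At a fold of 1.5 or more there were 13 (6.37%) higher and 14 (6.86%) lower genes, 13.2% in either direction. With depth standardised 6 were higher, without ANGPT1 and IL7R, and 5 were lower, without COL1A1, KRT81 and IGFBP5. FCGR3A, ESM1 and ANGPT1 had the UMIs to be measured only through their higher level in positive cells. Most panel genes differed little. Over all of those measured, the median log2 fold was 0.04, with 112 above and 92 below a ratio of 1. When the 5 most abundant genes were left out of the totals the split was 3 higher and 9 lower, because 5 of the 8 higher genes had folds between 2.00 and 2.11.

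Among the basal genes MME, CDH3 and AREG had a higher level in positive cells and were detected in more of them. The shares of cells with a transcript were not corrected for depth, and the positive cells were deeper. MME reached 604 CPM in positive cells and 287 CPM in 0-UMI cells, and 74.2% against 44.1% of cells had at least 1 MME UMI. Its depth-standardised fold was 2.07. CDH3, which encodes the adhesion molecule P-cadherin and is used in this line as a marker of the epithelial-like state, stood at 223 CPM against 111 CPM, a fold of 2.00 (1.81 to 2.21), and was detected in 33.7% and 17.5% of cells. AREG stood at 4378 CPM against 2115 CPM and was detected in 70.4% and 50.8% of cells. For AREG and CDH3 the depth-standardised folds were 2.04 and 2.03. The other 2 epithelial markers of this line differed less, with ITGA6, the integrin subunit of the basal surface, 1.26-fold (1.22 to 1.30) and the p53 homologue TP73 1.11-fold (1.05 to 1.17) higher, or 1.32-fold and 1.20-fold with depth standardised. SFN, a 14-3-3 protein of epithelial cells, was 1.42-fold (1.32 to 1.54) higher. KRT81, a hair keratin, ran the other way at 2.06-fold lower (1.51 to 2.87), on 43 and 672 UMIs, and at 1.96-fold with depth standardised.

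The other higher genes were CCL5, IL7R, ANGPT1, ESM1 and FCGR3A. CCL5 took 31351 CPM in positive cells and 13728 CPM in 0-UMI cells, was detected in 89.6% and 81.0% of them, and had a depth-standardised fold of 2.10. IL7R, the receptor chain for interleukin 7, was 2.03-fold (1.88 to 2.19) higher, at 373 against 184 CPM, but 1.80-fold with depth standardised. On 50 and 185 UMIs, ANGPT1, a ligand of the endothelial receptor TIE2, had a ratio of 2.05 (1.47 to 2.82), or 1.76 with depth standardised. ESM1, the secreted proteoglycan endocan, was 2.29-fold (1.69 to 3.05) higher, but 43.5% of its 62 UMIs in positive cells lay in 3 cells. Without those 3 positive cells it was 1.30-fold higher against all 0-UMI cells.

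FCGR3A, the Fc receptor CD16, had the largest ratio on the fewest cells. It was 18.3-fold higher (11.7 to 29.3), on 70 UMIs in positive cells and 29 in 0-UMI cells, and 15.1-fold with depth standardised. Only 6 of the 442 positive cells and 12 of the 4309 0-UMI cells carried any, and 63 of the 70 UMIs came from 3 cells with 30, 20 and 13. Without those 3 cells the fold was 1.85 against all 0-UMI cells. No cell was removed from the 0-UMI side, where 62.1% of the 29 UMIs also lay in 3 cells. FCGR3A has a near-identical neighbour, FCGR3B, whose reads could be counted with it. Just short of 2-fold were TCF4, a transcription factor gene tied to the mesenchymal state, at 1.88-fold (1.52 to 2.32), the calprotectin subunit genes S100A8 at 1.73-fold (1.47 to 2.03) and S100A9 at 1.61-fold (1.58 to 1.63), and ARG2, the mitochondrial arginase, at 1.58-fold (1.52 to 1.64).

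The genes with the largest ratios downward were those that mark the mesenchymal end of this line. DCN stood at 42.6 CPM in positive cells and 255 CPM in 0-UMI cells. S100A4, a calcium-binding protein of motile and fibroblast-like cells, stood at 368 CPM against 1512 CPM, which is 4.11-fold lower (3.83 to 4.41). PDGFRB, the receptor for platelet-derived growth factor B, was 3.32-fold lower (2.99 to 3.70), at 163 against 539.5 CPM. The adhesion receptor gene VCAM1 was 3.04-fold lower (2.49 to 3.76) and the collagen gene COL1A1 2.02-fold lower (1.95 to 2.10), at 1474 against 2980 CPM. With depth standardised DCN was 5.31-fold, S100A4 3.59-fold, PDGFRB 2.80-fold, VCAM1 2.80-fold and COL1A1 1.88-fold lower.

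These transcripts were unevenly spread among the positive cells themselves. COL3A1 stood at 479 CPM in positive cells and 2348 CPM in 0-UMI cells, but 53.5% of its UMIs in positive cells lay in 3 cells, and without those its ratio to 0-UMI cells was 0.0958 instead of 0.204. The share of cells with any COL3A1 UMI was 32.6% and 42.1%, and that with any DCN UMI 11.3% and 15.4%. So cells without a DCN or COL3A1 molecule were the majority in both groups, and the difference in level was larger than the difference in the share of cells.

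Outside the mesenchymal list the lower genes were VCAM1, KRT81 and IGFBP5, whose product binds insulin-like growth factors, which was 2.00-fold lower (1.96 to 2.05) at 4135 against 8286 CPM, or 1.94-fold with depth standardised. Next in size were the receptor tyrosine kinase gene ROS1, 1.90-fold lower (1.44 to 2.55), the galectin gene LGALS3, 1.78-fold lower (1.70 to 1.87), the complement gene C4A, 1.77-fold lower (1.53 to 2.06) but 1.44-fold with depth standardised, and the innate receptor gene TLR1, 1.73-fold lower (1.29 to 2.37). C4A shares nearly all of its sequence with C4B, so the panel may not tell them apart.

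**Figure D2:**
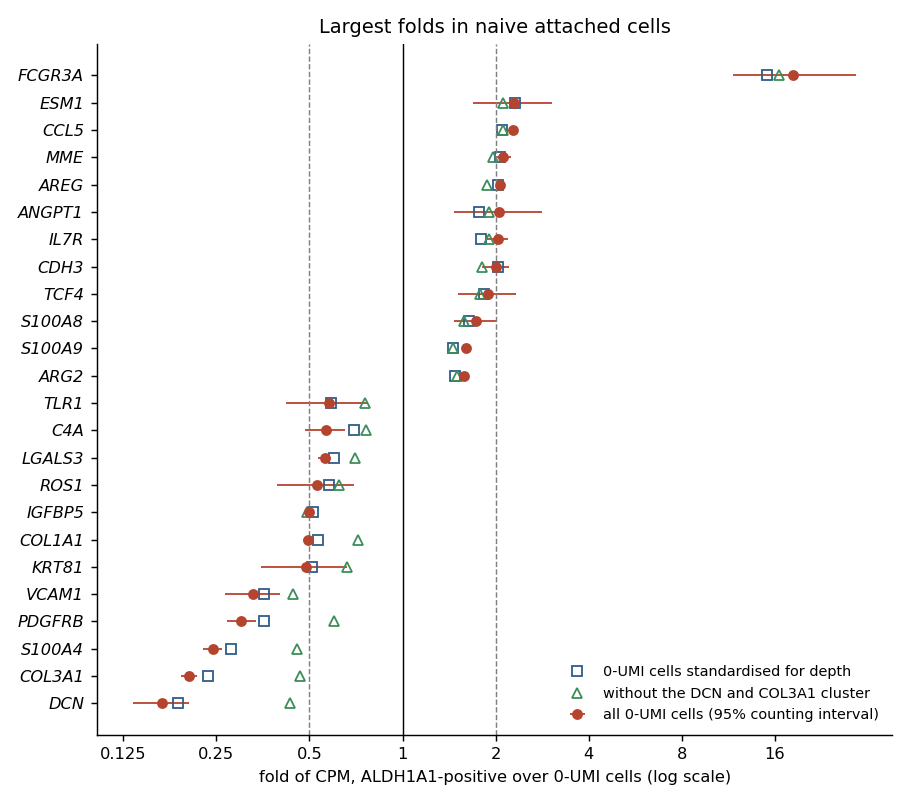
Points give the ratio of CPM in ALDH1A1-positive over 0-UMI treatment-naïve attached cells on a log axis, for the 12 largest ratios in each direction, with bars for the 95% counting interval. Squares are against 0-UMI cells standardised for depth and triangles are without the cluster led by DCN and COL3A1, where DCN moved from 0.167 to 0.432 while CCL5 stayed above 2.

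By gene list, the basal epithelial genes had the highest median among lists with more than 1 measured gene, and 5 of the 8 lower genes were in the mesenchymal list. Each count below stands against 3.92% of all measured genes higher and 3.92% lower, so that 0 or 1 gene of a short list is near the level of all genes. Of 11 measured basal genes, 3 were higher (MME, AREG, CDH3) and 1 was lower (KRT81), with a median log2 fold of 0.44, the same with depth standardised. Of 27 measured mesenchymal and matrix genes none was higher and 5 were lower (DCN, COL3A1, S100A4, PDGFRB, COL1A1). Their median log2 fold was only -0.11, with 19 of 27 below a ratio of 1, and TCF4 and THBS1, which encodes thrombospondin and had a ratio of 1.26 (1.18 to 1.34), lay at its upper end. The 10 measured luminal genes had no gene past 2-fold and a median of 0.05, from the surface glycoprotein gene CD24 at 1.48-fold lower (1.44 to 1.52) to KRT18, a keratin of simple epithelia, at 1.23-fold (1.21 to 1.25) higher.

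Other genes used as stem cell and surface state markers ran from CD24, 1.48-fold lower (1.44 to 1.52), to ITGA6, 1.26-fold (1.22 to 1.30) higher. Of 8 measured members none passed 2-fold in either direction, which is near the 7.84% of all measured genes, and the median log2 fold was 0.06. CD44, the hyaluronan receptor, was 1.03-fold lower (1.01 to 1.04) and was detected in every positive cell. POU5F1, the pluripotency factor OCT4, was 1.13-fold lower (0.966 to 1.33), an interval that includes no difference. Drug efflux genes differed little. ABCG2 was 1.25-fold (1.11 to 1.40) higher and ABCB1, which encodes P-glycoprotein, 1.13-fold lower (1.01 to 1.28), and with depth standardised ABCB1 was 1.02-fold lower. In the 11 measured genes of the efflux and detoxification list the median was 0.18.

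Mitotic genes were slightly higher, whereas genes of G1/S ran both ways. All 17 measured G2/M and mitosis genes were above a ratio of 1, against 112 of the 204 measured genes, but none reached 2-fold, with a median log2 fold of 0.36 that was 0.21 with depth standardised. They ran from CENPF, a kinetochore protein, at 1.15-fold (1.11 to 1.19) to UBE2C, the ubiquitin-conjugating enzyme of mitotic exit, at 1.39-fold (1.36 to 1.42). Of the 16 measured G1/S and DNA replication genes 12 were above a ratio of 1, with a median of 0.22 and 0.15 with depth standardised. CDCA7, a MYC-responsive chromatin factor, was highest at 1.44-fold (1.30 to 1.60) and the cyclin genes CCNE1 and CCND1 were lowest, at 1.25-fold (1.11 to 1.41) and 1.23-fold (1.20 to 1.25) lower. The positive cells were deeper, as given above, and the part of that in these small differences was not tested beyond the standardisation.

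Among inflammatory genes, of 14 measured cytokine and chemokine genes 1 was higher, CCL5, and the median log2 fold was 0.04. The most abundant of them, the chemokine CXCL8, was 1.26-fold lower (1.25 to 1.26) and CSF1, the macrophage growth factor, 1.28-fold lower (1.22 to 1.35). None of 6 interferon and antigen presentation genes passed 2-fold, with a median of 0.10 and CD274, the checkpoint ligand PD-L1, highest at 1.42-fold (1.29 to 1.56). None of 9 p53 and apoptosis genes did so either, and their median was -0.00. The medians of the 4 genes of insulin-like growth factor binding and the 3 complement genes were -0.18 and -0.23.

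Some of the differences were seen in cells with 1 ALDH1A1 UMI and others were not. Over all genes, none with the UMIs to be measured was 2-fold higher in cells with 1 UMI than in cells with 0, and 5 were 2-fold lower. FCGR3A stood at 8.24 against 1.73 CPM in that comparison, but on 20 UMIs, too few to be measured. Of the genes lower in positive cells, DCN, COL1A1, KRT81 and IGFBP5 were not among these 5. In cells with 0, 1, 2, 3 to 4 and 5 or more ALDH1A1 UMIs, CDH3 stood at 111, 174, 208, 216 and 260.0 CPM. MME stood at 287, 514, 535, 631 and 696 CPM in the same order, with a step of 1.79-fold between cells with 0 and 1 UMI. AREG stood at 2115, 3835, 3822, 4018 and 5983 CPM. CCL5 differed from these, since it stood at 13728 and 14681 CPM in cells with 0 and 1 UMI and reached 22184, 38424 and 38206 CPM in the others.

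For S100A4 and PDGFRB most of the difference lay between cells with none and cells with 1 ALDH1A1 UMI. S100A4 stood at 1512, 465, 383, 356 and 358 CPM in that order and PDGFRB at 539.5, 207, 175, 142 and 170.0 CPM. DCN stood at 255, 129, 34.6, 43.8 and 56.0 CPM. In cells with 1 ALDH1A1 UMI, 190 of its 312 UMIs lay in 1 cell, so its step between 1 and 2 UMIs rests largely on that cell. COL3A1 stood at 2348, 665, 177 and 227 CPM and then at 1436 CPM in the 92 cells with most ALDH1A1 UMIs. In cells with 1 ALDH1A1 UMI, 746 of its 1614 UMIs lay in 1 cell. Among positive cells 3 held most of its UMIs.

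**Figure D3:**
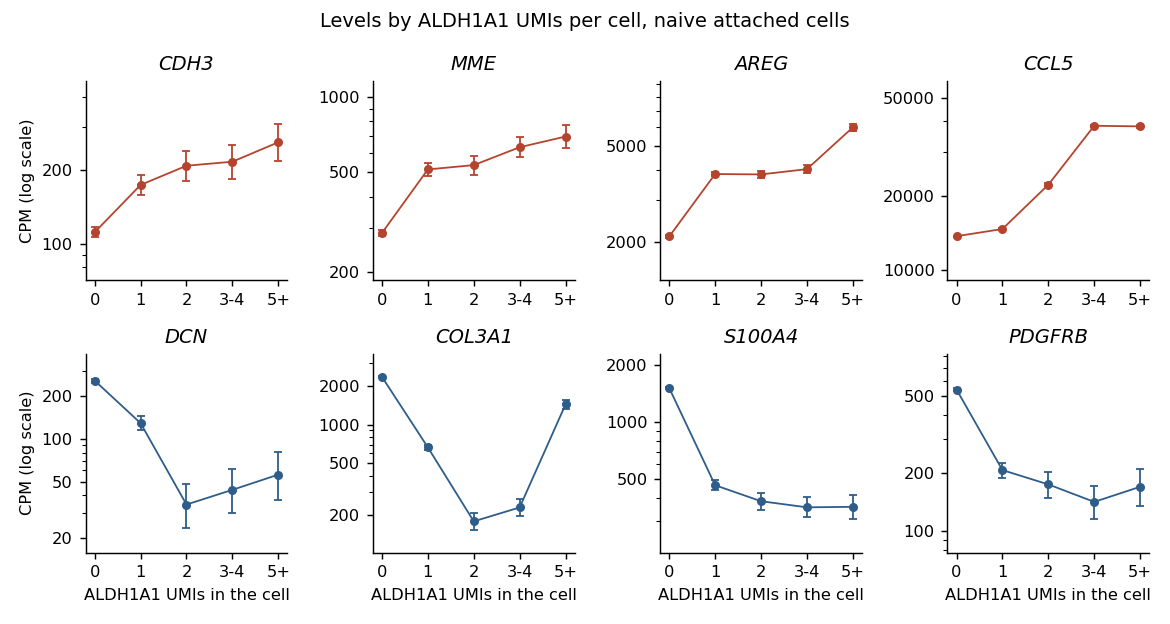
Each panel gives the CPM of 1 gene on a log axis in treatment-naïve attached cells with 0, 1, 2, 3 to 4 or 5 or more ALDH1A1 UMIs, with exact Poisson 95% intervals. CDH3, MME, AREG and CCL5 are highest in cells with 3 or more UMIs, and DCN, COL3A1, S100A4 and PDGFRB are highest in cells with 0.

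ALDH1A1-positive cells were found in 7 of 8 clusters of treatment-naïve attached cells and were missing from 1. The cells were grouped on panel genes without ALDH1A1 and without the cell cycle lists, and clusters are called by number and leading genes. Cluster 7, led by RUNX3, DCN, COL3A1, PDGFRB and S100A4, held 491 cells and no positive cell, which allows a share of up to 0.611%. It had 2 ALDH1A1 UMIs in all (1.18 CPM, 0.142 to 4.25), close to the level in resistant cells, at a median depth of 3060 UMIs per cell. Cluster 8, led by FCGR3A, ANGPT1, CCL5 and IL7R, had the highest share, with 53 positive cells of 258, or 20.5% (15.8 to 26.0). Next were cluster 6, led by CDH3, ABCG2 and mitotic genes such as CENPA, at 13.6% (10.9 to 16.8) and cluster 4, led by AREG, CD274 and CDCA7, at 10.9% (8.63 to 13.4), whose intervals overlap. Cluster 5, led by mitotic genes such as CENPF and CCNB1, held 10.5% (8.26 to 13.1). The lowest shares above 0 were those of cluster 1 with 7.34%, cluster 2, led by CCL3 and CD14, with 6.06%, and cluster 3, led by the nucleotide synthesis gene TYMS, with 5.65% (4.13 to 7.51). No cluster held more than 17.0% of the positive cells.

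The clusters differed in depth, so the shares were also taken after thinning each cell to 1000 UMIs. At least 1 ALDH1A1 UMI was then found in 14.3% (10.3 to 19.2) of cluster 8 cells, 9.80% of cluster 6 cells and no cluster 7 cell, with the other 5 between 4.98% and 8.68%. Cluster 8 was highest and cluster 7 lowest at equal depth too. Between them the order differed from that at full depth, with cluster 3 at 7.45% and clusters 1 and 5 at 6.60% and 7.31%, and their intervals overlapped.

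Cluster 7 carried a large part of the lower genes. The clusters were built on panel genes that include DCN, COL3A1, PDGFRB and S100A4, and cluster 7 was picked because it held no positive cell. Smaller ratios of its leading genes without it are therefore partly built in. Its 489 cells without ALDH1A1 were 11.3% of the 0-UMI cells but held 65.3% of their DCN, 60.6% of their COL3A1, 54.9% of their PDGFRB and 52.1% of their S100A4 UMIs. Without cluster 7 DCN was 2.32-fold (1.88 to 2.88), COL3A1 2.15-fold (2.02 to 2.29) and S100A4 2.19-fold (2.04 to 2.35) lower in positive cells, and VCAM1 2.25-fold (1.84 to 2.79). PDGFRB and COL1A1 were then 1.66-fold and 1.39-fold lower and no longer past 2-fold. The higher genes depended less on it, with CCL5 at 2.12-fold, MME at 1.96-fold, AREG at 1.88-fold and CDH3 at 1.81-fold. Of the 204 genes 3 were then higher and 5 lower.

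Where 0-UMI cells were weighted to the cluster make-up of the positive cells, so that each cluster was compared with itself, the ratios shrank further. Since CCL5, IL7R, CDH3, DCN and COL3A1 were among the genes that made the clusters, such shrinking is also partly built in. CCL5 was 1.33-fold, IL7R 1.17-fold and ANGPT1 1.03-fold higher, all leading genes of cluster 8. MME kept the larger part of its difference at 1.81-fold, AREG was 1.59-fold and CDH3 1.52-fold higher. DCN was 1.73-fold, S100A4 1.88-fold and COL3A1 1.75-fold lower. With this weighting 2 genes, FCGR3A and ESM1, were past 2-fold upward and none downward. Both had the UMIs to be measured only through their higher level in positive cells. In those cells 90% of FCGR3A and 43.5% of ESM1 UMIs lay in 3 cells.

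The cells were also ranked by markers of cell state without clusters, which describes the same differences in another way, since the markers include COL1A1, COL3A1, PDGFRB, DCN and CDH3. By summed CPM of the mesenchymal markers (COL1A1, COL3A1, PDGFRB, DCN, FBLN1 and ACTA2) the share of positive cells was 11.9%, 11.7%, 10.2%, 5.94% and 1.98% from the lowest to the highest quintile of 1061 cells. By the epithelial-like markers (TP73, CDH3, ITGA6, KRT14, KRT5 and SFN) it was 2.64%, 7.82%, 8.95%, 10.5% and 11.8%. With each cell thinned to 1000 UMIs, cells with an ALDH1A1 UMI made up 10.9% (9.12 to 13.0) of the lowest and 2.45% (1.61 to 3.57) of the highest mesenchymal quintile, and 2.17% (1.38 to 3.23) of the lowest and 10.5% (8.68 to 12.5) of the highest epithelial-like quintile. Median depth differed between these quintiles, from 3284 to 4048 UMIs by mesenchymal and from 3357 to 3976 UMIs by epithelial-like markers.

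**Figure D4:**
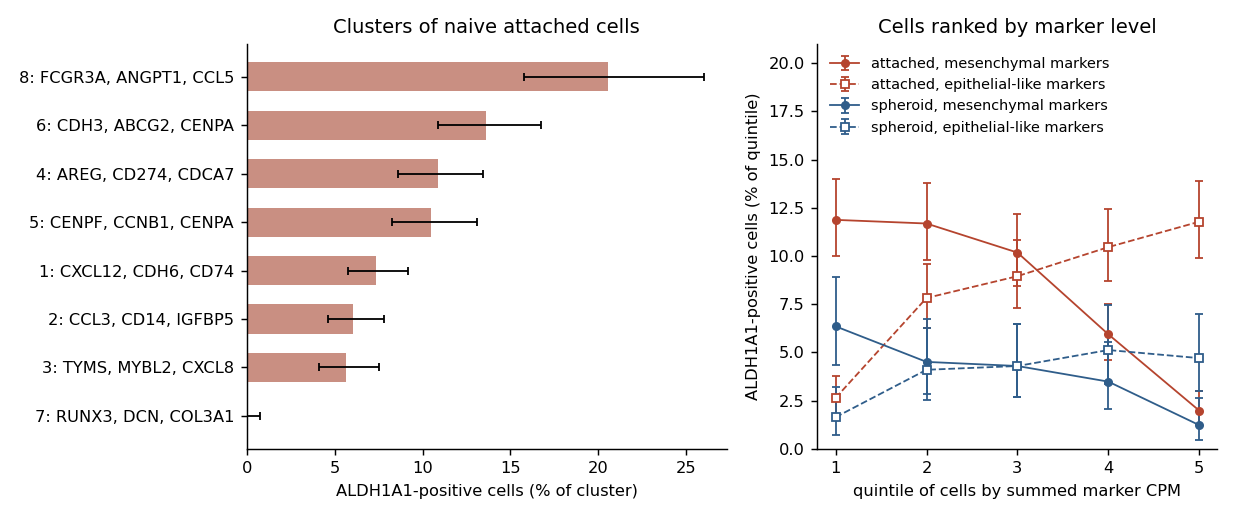
On the left, bars give the percentage of ALDH1A1-positive cells in each cluster of treatment-naïve attached cells, from 20.5% in cluster 8 to 0% in cluster 7. On the right, points give that percentage in quintiles of cells ranked by summed CPM of mesenchymal or epithelial-like markers, for attached cells and for spheroid cells of at least 1000 UMIs, and all bars are exact binomial 95% intervals.

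Few positive cells were high in both AREG and CCL5, and few 0-UMI cells were. With shares this small, few cells would be in both sets even if the 2 genes were unrelated. No expected number was computed. The 10% of all treatment-naïve attached cells with the highest AREG CPM included 87 positive cells, or 19.7% (16.1 to 23.7), and the 10% with the highest CCL5 CPM included 90, or 20.4% (16.7 to 24.4). Among 0-UMI cells the shares were 8.17% and 9.17%. Only 9 positive cells, or 2.04% (0.935 to 3.83), were in both sets and 168 positive cells, or 38.0%, in at least 1 of them. Among 0-UMI cells 17, or 0.395% (0.230 to 0.631), were in both. CDH3 and IL7R gave 69 and 89 positive cells in their highest 10%, with 10, or 2.26%, in both. Among 0-UMI cells 42, or 0.975%, were in both. Neither pair of genes was high in most positive cells.

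Spheroids gave a set of cells that the choice of members had not used, from the other cartridge and another culture. In treatment-naïve spheroids the 99 positive cells had a median of 6586 UMIs and the 4029 cells without ALDH1A1 one of 1250, and 47.3% of the latter but 2.02% of the former were below 1000 UMIs. Because of this gap the depth-standardised ratios are given first in this comparison. Of 186 measured genes none was higher and 7 were lower than the 2-fold limit with depth standardised. Without standardisation 1 (0.538%) was higher and 9 (4.84%) were lower, 5.38% in either direction, and at 1.5-fold 13 (6.99%) were higher and 16 (8.60%) lower, 15.6% in either direction. TNFSF9, the costimulatory ligand 4-1BBL, was the higher one, at 1.68-fold with depth standardised and 2.34-fold (2.15 to 2.53) without.

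The genes lower in attached positive cells were on the same side of 1 in spheroids, with smaller ratios for most. Of the 8 genes lower in attached positive cells 7 were measured in spheroids and all 7 were below a ratio of 1 there, also with depth standardised, where 79 of all 186 measured genes were. PDGFRB was 2.03-fold lower with depth standardised and 3.17-fold (2.93 to 3.44) without, VCAM1 1.98-fold and 2.57-fold (1.81 to 3.77), COL1A1 1.67-fold and 2.06-fold (1.96 to 2.17) and COL3A1 1.65-fold and 2.01-fold (1.96 to 2.06). The ratios of cells without to cells with ALDH1A1 were 1.18 for DCN, 1.06 for IGFBP5 and 1.05 for S100A4 with depth standardised, far smaller ratios than in attached cells. In cells without ALDH1A1, COL3A1 was much higher in spheroids, at 18356 CPM against 2348 CPM in the attached ones. DCN, S100A4, PDGFRB and COL1A1 were also higher there. IGFBP5 was lower in spheroids, at 588 against 8286 CPM, and VCAM1 slightly lower, at 120 against 136 CPM.

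The higher genes did not recur. Of 5 that were measured in spheroids 2 were above a ratio of 1, CCL5 at 1.09-fold and IL7R at 1.14-fold with depth standardised. AREG was 1.19-fold, MME 1.25-fold and CDH3 1.81-fold lower in the positive spheroid cells with depth standardised, opposite to attached cells. AREG was also scarce in spheroids, at 128 and 179.6 CPM, and 63.6% of its 88 UMIs in positive cells lay in 3 cells. ABCB1 was 3.09-fold lower with depth standardised and 4.50-fold (3.42 to 6.06) without, on 51 UMIs, IGFBP3 3.42-fold and 3.43-fold (2.97 to 3.99) and THBS1 2.56-fold and 2.71-fold (2.37 to 3.13), none of which had differed 2-fold in attached cells. ABCB1 was detected in more positive cells than cells without ALDH1A1, 26.3% against 18.5%, with 49.0% of its UMIs in positive cells in 3 of them. These detection shares were not corrected for depth, and the positive cells were far deeper. By the mean of each cell's CPM the ratio of ABCB1 was 0.0832 and that of IGFBP3 0.492, against 0.222 and 0.291 over summed cells, and without the 3 positive cells with most UMIs they were 0.117 and 0.142. The 17 G2/M genes were again all above a ratio of 1, with a median log2 fold of 0.47 and 0.30 with depth standardised.

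Over the 178 genes measured in both cultures, 64.6% lay on the same side of a ratio of 1 with the spheroid values standardised for depth. By mesenchymal markers the share of positive spheroid cells was 6.35% (4.36 to 8.90) in the lowest and 1.23% (0.452 to 2.65) in the highest quintile of cells with at least 1000 UMIs. With each cell thinned to 1000 UMIs, cells with an ALDH1A1 UMI made up 4.51% (2.85 to 6.75) and 3.07% (1.73 to 5.01), whose intervals overlap, so the gradient was not detectable in spheroids at that depth. By epithelial-like markers the share of positive cells was 1.64% (0.710 to 3.20) in the lowest and 4.70% (3.00 to 6.97) in the highest quintile, and the thinned shares of cells with an ALDH1A1 UMI were 2.87% and 3.07%, with the highest, 5.53%, in the second.

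**Figure D5:**
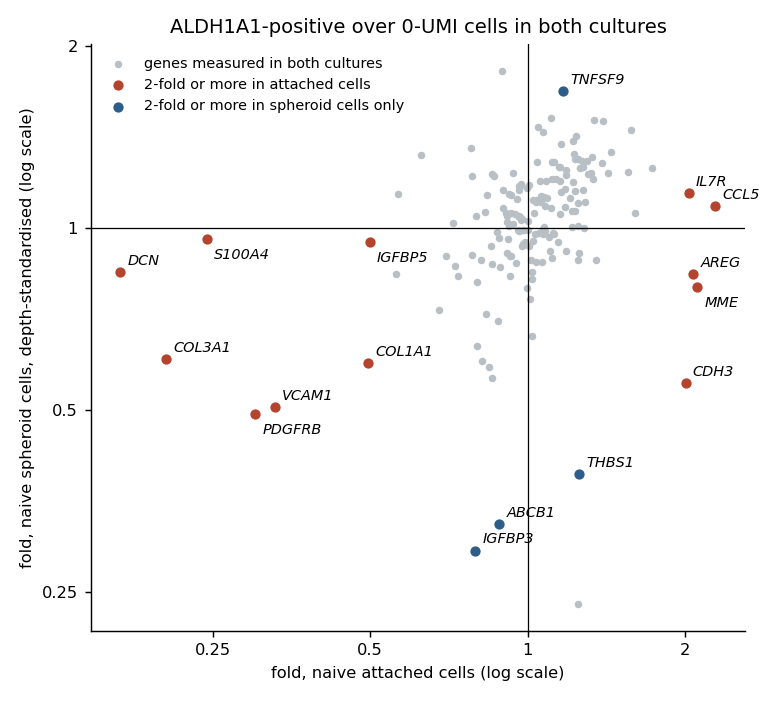
Each point is 1 of the 178 genes measured in both cultures, with the ratio of CPM in ALDH1A1-positive over 0-UMI cells for attached cells on the x axis and for spheroid cells, standardised for depth, on the y axis, both on log scales. PDGFRB, VCAM1, COL1A1 and COL3A1 are low in both cultures, whereas MME, AREG and CDH3 are above 1 in attached and below 1 in spheroid cells.

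Markers of blood cell lineages were looked at because IL7R and FCGR3A, usually genes of such cells, were among the higher ones. The 13 T and NK lymphocyte markers summed to 401 CPM in positive and 199 CPM in 0-UMI cells. Of their 885 UMIs in positive cells 824 were IL7R, and PTPRC, CD28, LCK and ZAP70 were at 0. IL7R was the only 1 of these markers with the UMIs to be measured. Among the rest CD3D had a ratio of 3.14 and FOXP3 one of 0.95, both on few UMIs. The 5 listed B lymphocyte and plasma cell markers summed to 1353 and 1869 CPM, of which FCRLA gave 2954 of 2988 UMIs in positive cells, and JCHAIN was at 0. The 12 listed myeloid markers summed to 625 and 813 CPM, led by CD14 with 1197 of 1381 UMIs, and C1QA was at 0. The markers named as at 0 had no more than 0.398 CPM each in 0-UMI cells outside cluster 7. At such levels a count of 0 in the positive cells says little. No barcode of this population recurred in the other attached populations, and 71 of its 5305 recurred in spheroid files of the other cartridge, 8 of them positive cells.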

How the data were processed

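Targeted single-cell RNA sequencing was carried out by the authors with the BD Rhapsody Onco-BC panel on 2 pooled samples of SUM159 cells, attached and spheroid. According to the study's methods, reads were processed on a commercial cloud platform, and the matrices hold molecule counts after an adjustment named RSEC. The submitters' processing notes name hg38. The authors deposited a matrix of raw UMI counts per gene and cell for each population, not normalized, and each matrix was assigned to its population by name. For spheroids the sample labels call the drug populations treated and the design text calls them resistant. The 18233 attached barcodes exceed the roughly 15000 cells that were pooled according to the labels, and match the number the study had before its own quality control, which kept fewer. The thresholds of that step and the handling of cells with more than 1 tag are not given in the sources used here. All deposited barcodes were used as cells and no doublet caller was run, so the shares are of barcodes.

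The members, gene lists and alternatives were chosen with earlier results of these data known. UMIs were summed over the cells of each group and scaled to CPM (per 1000000), with ALDH1A1 left out of the genes and totals. Ratios of CPM carry exact conditional binomial 95% intervals, CPM values exact Poisson and shares of cells exact Clopper-Pearson intervals, all for counting error only. With 1 sample per culture and cells that are not replicates, no p-value is given. A gene was measured when at least 50 UMIs were observed in positive cells or expected there, and a count of 0 was taken to allow 3. The depth-standardised reference weighted 0-UMI cells over 10 bins of total UMIs to the positive cells. Thinning drew 1000 UMIs per cell without replacement and left out shallower cells. Leiden clusters (leidenalg 0.10.2, resolution 0.8) used 194 log-normalised genes with a UMI in over 2% of cells, 20 principal components and 15 neighbours. Named genes were the 12 largest ratios each way, the 2 highest and 2 lowest of each of 15 lists, and 10 set markers. The study discusses these set markers apart from CD44 and CD24. Genes named from spheroids, RUNX3 and cluster leaders were chosen after their values were seen. The calculation was tested on simulated counts. Python 3.11.15, numpy 2.4.6, scipy 1.17.1 and scikit-learn 1.9.0 were used. Coordinates of ALDH1A1 were read from RefSeq genes on GRCh38.p14.

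Depth was 21423102 UMIs in treatment-naïve attached cells, of which positive cells held 2208245 and 0-UMI cells 16785937 (ALDH1A1 left out), and 11307759 UMIs in treatment-naïve spheroids.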

Additional observations from a re-analysis of the deposited data

Results flagged for a closer look

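The ratios of 3 basal genes in ALDH1A1-positive over 0-UMI cells lay on opposite sides of 1 in the attached and the spheroid culture. In attached cells MME was 2.11-fold, AREG 2.07-fold and CDH3 2.00-fold higher. In spheroids their ratios were 0.703 (0.552 to 0.883), 0.713 (0.569 to 0.884) and 0.691 (0.566 to 0.837), and 0.797, 0.838 and 0.553 with depth standardised. In spheroid cells with exactly 1 ALDH1A1 UMI the ratio of CDH3 was 1.15, and those of MME and AREG were 0.719 and 0.581. With 1 sample per culture the difference was not tested.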

How the results depend on the processing

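The direction of single genes was stable in attached cells. Of 63 named genes, between 60 and 63 stayed on their side of a ratio of 1 under each of 9 alternatives. In spheroids it was 44 to 52 of 52 named genes under 8 alternatives, with 44 in cells with exactly 1 UMI and 45 with depth standardised. The counts of genes past 2-fold were less stable, since several ratios lie near 2. The 8 higher genes became 3 with totals without the 5 most abundant genes, 1 (CCL5) without the 3 positive cells with most UMIs of each gene, which can only lower the positive side, 5 with positive cells of 3 or more UMIs or at least 100 UMIs, 0 in cells with exactly 1 UMI, and 13 at 1.5-fold. The 8 lower genes became 5 with depth standardised, 5 in cells with exactly 1 UMI and 14 at 1.5-fold. Alternatives chosen after seeing the data gave 3 higher and 5 lower genes without cluster 7, and 2 and 0 with the reference weighted to clusters. In spheroids the 1 higher gene became 0 with depth standardised or without the 3 top cells, 5 by the mean of each cell's CPM, 3 without the 1% of cells with most UMIs, with 3 or more UMIs or with at least 20 UMIs, and 13 at 1.5-fold. The 9 lower genes became 21 without the 3 top cells, 4 in cells with exactly 1 UMI and 16 at 1.5-fold. The cause of these changes was not tested beyond what each alternative removes. The share of positive cells was 1.68% in attached and 0.328% in spheroid treatment-naïve cells and 0% in doxorubicin-resistant spheroids when cells were thinned to 1000 UMIs, and 3.97% in treatment-naïve spheroid cells of at least 1000 UMIs. At resolution 0.5 the highest share in a cluster was 14%, and the DCN and COL3A1 cluster again had 0 positive cells. No paired analysis was possible because no population has a replicate. Depth limits the genes on few UMIs, such as FCGR3A, ESM1, ANGPT1 and KRT81, and the spread between cultures is unknown.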
